A study of Mus musculus with 16 samples.

Results

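The insulin-like growth factor (IGF) system was described through 9 genes, namely the ligands Igf1 and Igf2, the receptors Igf1r and Igf2r, and the binding proteins Igfbp3, Igfbp4, Igfbp5, Igfbp6 and Igfbp7. They were chosen by name among the genes of this system with a probe detected in the left ventricle, with earlier results of these data known. They stand among 8831 genes with a tested probe. The array carried 12 probes for them, of which 11 were tested. Expression was measured in left ventricles of male mice aged 12 weeks, each on its own array, and 4 mice made up each of 4 groups. These were castrated (CX) C57.YA, sham-operated C57.YA, CX C57BL/6J and sham-operated C57BL/6J hearts. C57.YA is the consomic strain in which the chromosome Y (chrY) of C57BL/6J has been replaced by that of A/J, so that both strains share the C57BL/6J background. Surgery preceded puberty, and no group received testosterone, so a CX heart matured without the gonadal hormone that a sham heart received. The comparisons ask what castration did to the system in each strain, and whether the chrY background altered it.

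In this system, the secreted ligands IGF1 and IGF2 bind the tyrosine kinase receptor IGF1R, which signals to cell growth and survival through insulin receptor substrates, phosphatidylinositol 3-kinase and AKT. IGF2R binds IGF2 and carries it to lysosomes, and therefore clears it without such signalling. The IGF-binding proteins hold the ligands outside the cell, which prolongs their life and can block or release their action, and IGF1 is known as a growth stimulus for heart muscle cells.

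The arrays were close in the number of probes detected, while their mean intensity varied. From 11435 to 12212 of the 25697 probes were detected per array (detection p of at most 0.04 against the negative controls), and the mean intensity of an array lay between 733 and 1208. Ventricular cardiomyocyte markers were bright, with a mean log2 signal of 7 of them between 14.21 and 14.40 on all 16 arrays. That range does not show whether atrial tissue was present, since it held in all 4 groups. Atrial muscle markers were high in 1 group, against the labelled tissue. The mean log2 signal of all 4 of them (Myl4, Myl7, Sln and Mybphl) was 7.09 to 7.65 in CX C57.YA hearts, 6.99 to 7.19 in sham C57.YA hearts, 9.23 to 11.16 in CX C57BL/6J hearts and 7.03 to 7.11 in sham C57BL/6J hearts, so that atrial signal and castration cannot be told apart in C57BL/6J. Within the sham C57.YA group, replicates 1 and 2 stood apart from replicates 3 and 4 for some genes, Igfbp4 among them. Calls in C57.YA on the 9 genes are given with and without these pairs of sham hearts. Calls in C57.YA on other genes are given with all 4 sham hearts only. In samples of whole ventricle, fewer cells of a type and less RNA per cell cannot be told apart.

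Promoters are shown for the 4 binding protein genes whose signals changed with castration, as the sequences in front of which these changes were read (RefSeq, build GRCm38.p6, from 250 bases before to 50 bases after a start, 5′ to 3′ on the strand of the gene). For Igfbp6, Igfbp5 and Igfbp7 that start is the end of the annotated locus from which the gene is read, whereas for Igfbp4 it lies inside the annotated locus. Capitals mark exact matches to TATAAA, the letters of the TATA box, and to GGGCGG, the letters of the GC box, wherever they stood. A match by letters does not show that the site is used. Both strands were read, and a match on the other strand stands as its reverse complement. The first is Igfbp4 (chr11:99040994-99041293, plus strand), the second Igfbp6 (chr15:102143936-102144235, plus strand), the third Igfbp5 (chr1:72874816-72875115, minus strand) and the fourth Igfbp7 (chr5:77407996-77408295, minus strand).
Igfbp4: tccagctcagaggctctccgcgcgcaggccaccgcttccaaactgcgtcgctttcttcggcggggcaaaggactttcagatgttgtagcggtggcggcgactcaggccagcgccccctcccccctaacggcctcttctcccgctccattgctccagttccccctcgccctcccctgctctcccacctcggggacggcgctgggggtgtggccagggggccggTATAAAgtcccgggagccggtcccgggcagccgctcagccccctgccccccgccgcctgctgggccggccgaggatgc
Igfbp6: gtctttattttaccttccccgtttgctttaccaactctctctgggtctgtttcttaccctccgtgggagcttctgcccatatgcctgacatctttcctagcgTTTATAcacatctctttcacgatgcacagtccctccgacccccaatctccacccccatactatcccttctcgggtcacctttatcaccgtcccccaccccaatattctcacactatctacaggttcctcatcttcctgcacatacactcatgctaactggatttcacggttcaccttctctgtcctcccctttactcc
Igfbp5: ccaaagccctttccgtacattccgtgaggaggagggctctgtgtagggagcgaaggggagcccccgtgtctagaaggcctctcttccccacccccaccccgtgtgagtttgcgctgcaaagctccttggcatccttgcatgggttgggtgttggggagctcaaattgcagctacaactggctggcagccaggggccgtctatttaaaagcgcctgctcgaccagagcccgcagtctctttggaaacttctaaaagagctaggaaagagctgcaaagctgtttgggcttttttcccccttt
Igfbp7: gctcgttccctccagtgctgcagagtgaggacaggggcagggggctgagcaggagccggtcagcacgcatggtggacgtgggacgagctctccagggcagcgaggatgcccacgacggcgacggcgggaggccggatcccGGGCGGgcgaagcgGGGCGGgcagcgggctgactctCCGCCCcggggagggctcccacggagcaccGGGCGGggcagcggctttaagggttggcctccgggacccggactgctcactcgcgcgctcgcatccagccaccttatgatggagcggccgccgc
The Igfbp4 promoter held 1 TATAAA, 28 bases before the start, and that of Igfbp6 held 1 on the other strand, 148 bases before it. The Igfbp7 promoter held GGGCGG at 4 positions between 110 and 39 bases before the start, and the Igfbp5 promoter held neither of these exact runs of letters. Of 32851 promoters of the same length, 13.6% held TATAAA and 35.7% held GGGCGG. The half-site of the androgen response element, AGAACA on either strand, was in 19% of all promoters and in none of these 4. The Igfbp4 and Igfbp7 promoters were rich in CpG, with 27 and 33 CpG dinucleotides, whereas those of Igfbp6 and Igfbp5 had 8 and 10, beside a median of 7 over all promoters.

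Castration went with calls in opposite directions among the binding proteins, whereas Igfbp3, the ligands and Igf1r had no call in either strain. In C57.YA hearts, 2 of the 11 probes rose (Igfbp5 and Igfbp7) and 4 fell (both probes of Igfbp4, Igfbp6 and the first probe of Igf2r) at an adjusted p under 0.1 in limma. Over all 12764 tested probes, 19.7% passed in that comparison, with 9.55% higher and 10.1% lower. In C57BL/6J hearts, 1 probe rose (Igfbp7) and 1 fell (the second probe of Igfbp4), where 8.81% of all tested probes passed, with 4.10% higher and 4.71% lower. Averaged over the strains, which uses the same C57.YA hearts, the 6 probes called in C57.YA had a call, against 23.2% of all tested probes. Of these averaged calls, that on the first probe of Igf2r (-0.12, limma adjusted p = 0.0884) was lost under 20 of 30 alternative settings. With the mean atrial signal of each array as a covariate, chosen after seeing the data, only the averaged call on Igfbp7 remained, and 5.41% of all tested probes passed. The median log2 change of the 11 probes was -0.07 in C57.YA and -0.04 in C57BL/6J, against 0.00 in both strains over all tested probes. The balance of directions over all probes moved with the scaling, since median scaling in place of quantile normalization gave 1243 higher and 448 lower probes in C57.YA, against 1219 and 1291. Among the 11 probes it left 1 higher and 3 lower in C57.YA, and 1 higher and none lower in C57BL/6J. The groups did not overlap for 5 of the 11 probes in C57.YA, where 19.5% of all tested probes did not overlap, and for 2 of the 11 in C57BL/6J, where that share was 12.2%.

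**Figure D1:**
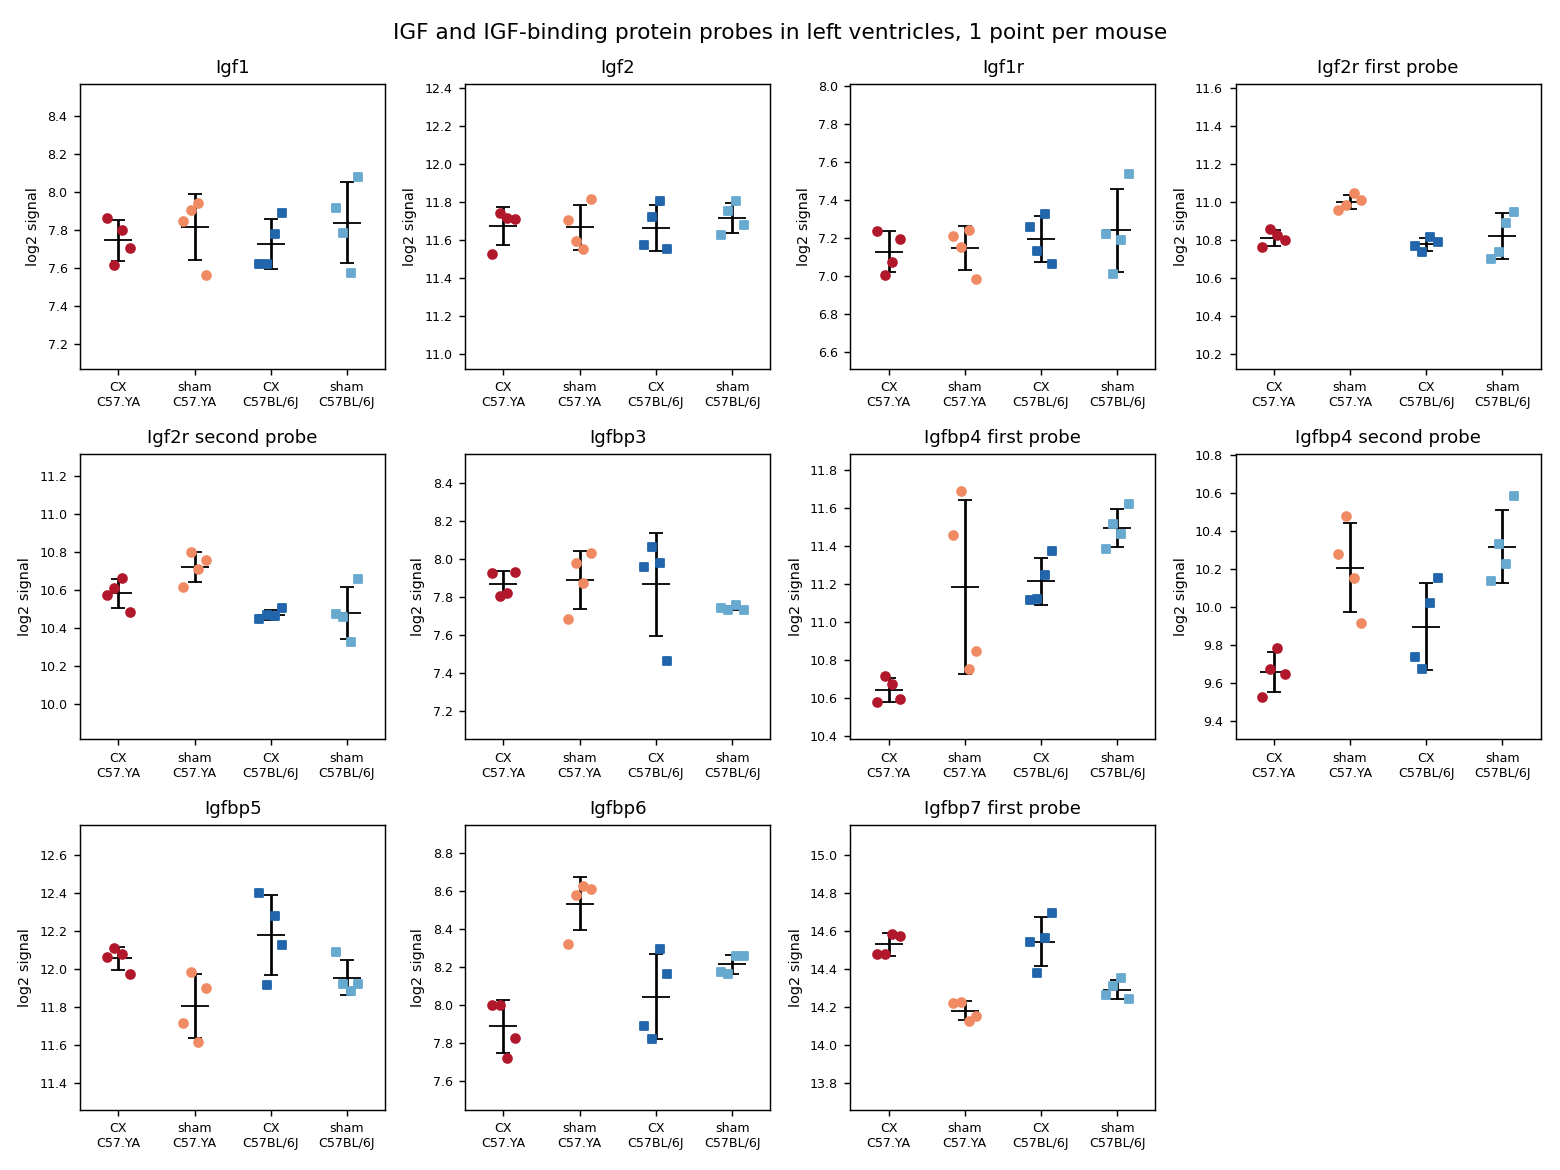
Log2 signal (quantile-normalized) of the 11 tested probes in each mouse, with the 4 groups along the horizontal axis, 1 point per mouse, and the mean and SD in black (n = 4 per group). Every panel spans the same range of 1.5 log2 units, and CX hearts lie below sham hearts for Igfbp6 in C57.YA and above them for Igfbp7 in both strains.

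The ligands changed little. Igf1, which encodes the growth factor that mediates much of the action of growth hormone, had log2 signals of 7.61 to 7.86 in CX C57.YA hearts and 7.56 to 7.94 in sham C57.YA hearts. Its signals were 7.62 to 7.89 in CX C57BL/6J hearts and 7.57 to 8.08 in sham C57BL/6J hearts. Its log2 change by castration was -0.07 in C57.YA (95% confidence interval -0.29 to 0.15) and -0.11 in C57BL/6J (-0.33 to 0.11). All 4 groups overlapped, and changes within these bounds were not excluded. Igf2, an imprinted gene for the fetal growth factor, was bright on every array, with intensities of 2175 to 4725 before normalization. Its group means were 11.68 ± 0.10 in CX C57.YA, 11.67 ± 0.12 in sham C57.YA, 11.66 ± 0.12 in CX C57BL/6J and 11.72 ± 0.08 in sham C57BL/6J hearts (log2 signal, SD, n = 4 each). The difference by castration was 0.01 in C57.YA (-0.16 to 0.17) and -0.05 in C57BL/6J (-0.22 to 0.11), the narrowest intervals among the ligands and Igf1r.

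Igf1r, the signalling receptor, lay close to the background, with intensities of 114 to 193 and a detection p of up to 0.0388. Its log2 change was -0.02 in C57.YA (-0.22 to 0.18) and -0.04 in C57BL/6J (-0.25 to 0.16). Igf2r, the clearance receptor, was measured by a pair of probes, both detected on all 16 arrays. The first probe of Igf2r gave 10.76, 10.86, 10.83 and 10.80 in CX C57.YA hearts, against 10.96, 10.99, 11.05 and 11.01 in sham C57.YA hearts. All 4 CX hearts were below all 4 sham hearts, by a log2 change of -0.19 ± 0.06 (SE; limma adjusted p = 0.0564). In CX C57BL/6J hearts it was 10.77, 10.74, 10.81 and 10.79, against 10.70, 10.74, 10.89 and 10.95 in sham C57BL/6J hearts, which overlapped (-0.04, adjusted p = 0.778). The second probe of Igf2r moved the same way in C57.YA without passing the test (-0.14 ± 0.07, limma adjusted p = 0.211). The call on the first probe was lost with median scaling (-0.13, adjusted p = 0.458). In all it was lost under 10 of 31 alternative settings, with a log2 change of the same sign in each. Without CX C57.YA replicate 1 or 4 or sham C57.YA replicate 3 the adjusted p was 0.112 to 0.142. Without sham C57.YA replicates 1 and 2 the change was -0.22 (adjusted p = 0.114), and without replicates 3 and 4 it was -0.16 (adjusted p = 0.177). With the mean mesothelial signal as a covariate it was -0.21 (adjusted p = 0.25), and with the mean fibroblast signal -0.20 (adjusted p = 0.111).

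Igfbp4, which encodes a binding protein known mainly as an inhibitor of IGF action, was lower in CX than in sham hearts. Its first probe gave 10.58, 10.72, 10.67 and 10.60 in CX C57.YA hearts, against 11.46, 11.69, 10.75 and 10.85 in sham C57.YA hearts. The CX hearts formed a tight group, whereas the sham hearts split, with replicates 1 and 2 far above it and replicates 3 and 4 just above it. Its second probe gave 9.53, 9.67, 9.79 and 9.65 in CX C57.YA hearts, against 10.28, 10.48, 10.16 and 9.92 in sham C57.YA hearts. Here too no CX heart reached a sham heart, and the same pair of sham hearts was highest. The fall by castration in C57.YA was 1.46-fold on both probes (log2 change -0.54 ± 0.15 and -0.55 ± 0.12, SE, limma adjusted p = 0.0181 and 0.00544).

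In C57BL/6J, the first probe of Igfbp4 gave 11.12, 11.12, 11.25 and 11.38 in CX hearts, against 11.39, 11.52, 11.46 and 11.62 in sham hearts. The groups did not overlap, although the change of -0.28 ± 0.15 did not pass the test (limma adjusted p = 0.302). The second probe gave 9.74, 9.67, 10.02 and 10.15 in CX C57BL/6J hearts, against 10.14, 10.33, 10.22 and 10.58 in sham C57BL/6J hearts. That change passed (-0.42 ± 0.12, a 1.34-fold fall, limma adjusted p = 0.0507), with 1 CX heart level with the lowest sham heart. Averaged over the strains, the fall was -0.41 ± 0.10 on the first probe and -0.49 ± 0.09 on the second (limma adjusted p = 0.00953 and 0.000605). The probes of Igfbp4 moved together over the 16 arrays (Pearson r = 0.84, and 0.74 for deviations from the group means), as a description of arrays that share their groups.

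The size of the Igfbp4 change in C57.YA depended on the sham hearts retained. Without sham C57.YA replicates 1 and 2 it was -0.16 on the first probe and -0.38 on the second (limma adjusted p = 0.323 and 0.106), and without replicates 3 and 4 it was -0.93 and -0.72 (adjusted p = 1.2e-05 and 0.00153). In C57BL/6J, the call on the second probe was lost without CX replicate 1, CX replicate 2 or sham replicate 4 (-0.37, -0.35 and -0.33, adjusted p of 0.129 to 0.164). With the mean atrial signal of each array as a covariate, which was chosen after seeing the data, the second probe in C57BL/6J had a change of 0.27 ± 0.31 (adjusted p = 0.802), and 0.627% of all tested probes passed in that comparison. With the mean mesothelial signal as a covariate, the changes in C57.YA were -0.47 and -0.49 (adjusted p = 0.261 and 0.15), where 6.31% of all tested probes passed.

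Igfbp6, whose product prefers IGF2 over IGF1, had the largest change of any probe of these genes. Its log2 signals were 8.0 in CX C57.YA replicates 1 and 2 and 7.73 and 7.83 in replicates 3 and 4, against 8.33, 8.58, 8.63 and 8.61 in sham C57.YA hearts. Every CX heart lay below every sham heart, with sham replicate 1 the lowest of its group. The change was -0.65 ± 0.10 (SE), a 1.56-fold fall (limma adjusted p = 0.00022). In C57BL/6J it gave 7.89, 7.83, 8.30 and 8.16 in CX hearts, against 8.18, 8.17, 8.26 and 8.26 in sham hearts. These groups overlapped, with CX replicates 1 and 2 low and CX replicate 3 above every sham heart (-0.17 ± 0.10, limma adjusted p = 0.364). The group means ran from 8.54 ± 0.14 in sham C57.YA through 8.22 ± 0.05 in sham C57BL/6J and 8.05 ± 0.22 in CX C57BL/6J to 7.89 ± 0.14 in CX C57.YA (SD, n = 4 each). Neighbours in that order did not pass a test, including the sham groups, although every sham C57.YA heart was above every sham C57BL/6J heart.

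The fall of Igfbp6 in C57.YA was called under every one of 31 alternative settings, with a log2 change between -0.83 and -0.54 and an adjusted p of at most 0.0386. It was -0.73 without sham C57.YA replicates 1 and 2 and -0.57 without replicates 3 and 4. Mesothelial markers moved with it. All 3 of the 5 listed mesothelial genes that were tested (Upk3b, Upk1b and Wt1) fell in C57.YA, where 10.1% of all tested probes fell, and none was called in C57BL/6J. Their summed signal was 625 to 686 in CX C57.YA hearts and 890 to 1094 in sham C57.YA hearts, and 652 to 1088 in CX C57BL/6J hearts and 643 to 947 in sham C57BL/6J hearts. Of 8 smooth muscle and pericyte genes, 3 fell in C57.YA (Acta2, Myh11 and Tagln), beside the same 10.1% of all tested probes. The other 5 had changes of 0.05 to 0.19 without a call, with a median of 0.06 over the 8. The summed signal of the 8 was 19173 to 28174 in CX C57.YA hearts and 25649 to 34863 in sham C57.YA hearts. With the mean mesothelial signal as a covariate, the change of Igfbp6 was -0.56 (limma adjusted p = 0.0386). Its correlation with the mesothelial mean was 0.63 over the 16 arrays and 0.24 for deviations from the group means. With the mean of 7 endothelial genes these correlations were 0.60 and 0.68. The part of smooth muscle or endothelial genes in the result was not tested.

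**Figure D2:**
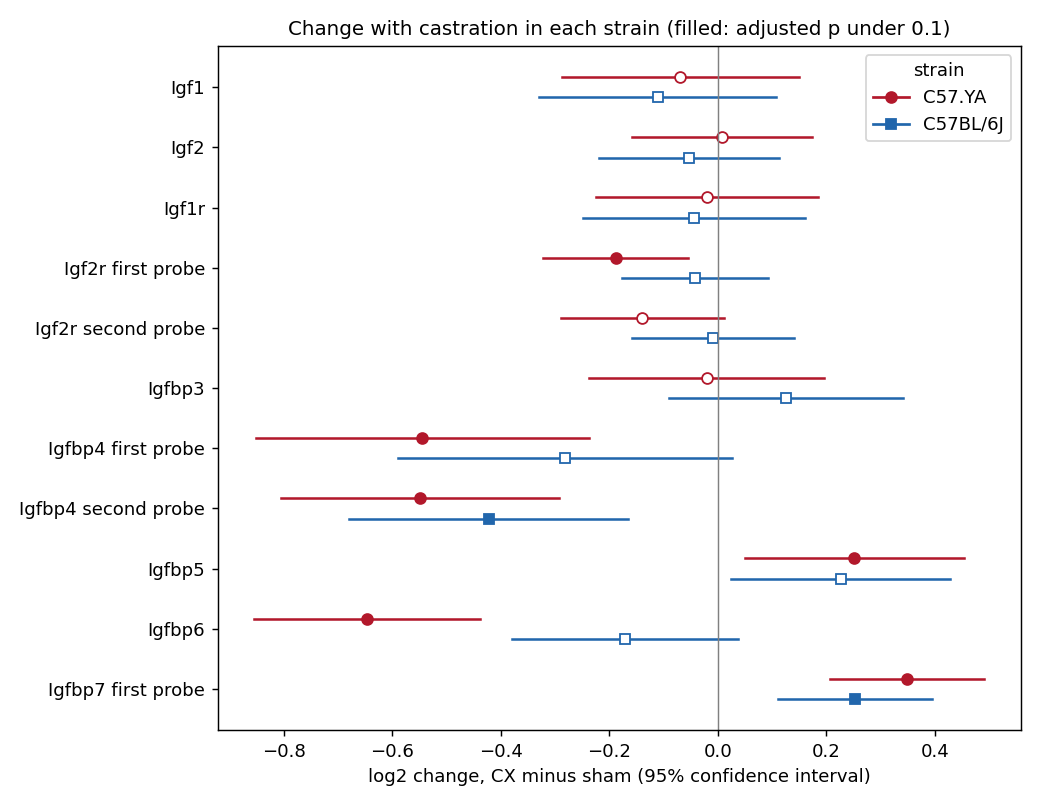
Log2 change by castration (CX minus sham) of each tested probe in C57.YA (circles) and C57BL/6J (squares), with 95% confidence intervals from limma and filled symbols for an adjusted p under 0.1. The intervals of Igfbp6 run from -0.85 to -0.44 in C57.YA and from -0.38 to 0.04 in C57BL/6J, whereas those of Igfbp7 lie above 0 in both strains.

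Igfbp7, a secreted protein of the vessel wall and matrix that binds IGFs weakly, rose in both strains. Its first probe gave 14.48, 14.48, 14.59 and 14.57 in CX C57.YA hearts, against 14.22, 14.23, 14.13 and 14.15 in sham C57.YA hearts. In CX C57BL/6J hearts it gave 14.54, 14.38, 14.56 and 14.69, against 14.26, 14.31, 14.35 and 14.24 in sham C57BL/6J hearts. In both strains all CX hearts were above all sham hearts. The rise was 0.35 ± 0.07 in C57.YA and 0.25 ± 0.07 in C57BL/6J (log2, SE), or 1.27-fold and 1.19-fold (limma adjusted p = 0.00193 and 0.0353). Averaged over the strains, it was 0.30 ± 0.05 (adjusted p = 0.000221). The call in C57.YA held under all 31 alternative settings (0.25 to 0.39, adjusted p of at most 0.0478). Without sham C57.YA replicates 1 and 2 the rise there was 0.39, and without replicates 3 and 4 it was 0.31 (limma adjusted p = 0.00909 and 0.0167). In C57BL/6J it was lost without sham replicate 4 (0.23, adjusted p = 0.101) and with the mean fibroblast signal as a covariate (0.18, adjusted p = 0.123), while with the mean atrial signal as a covariate it was 0.68 ± 0.16 (adjusted p = 0.0957). A second Igfbp7 probe was detected on 0 of the 16 arrays, with intensities of 54.0 to 73.7, so it was not tested and gives no value of the gene.

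Some fibroblast markers rose with Igfbp7. Of 8 tested, 2 rose in C57.YA and 2 in C57BL/6J, in both cases Col3a1, a fibrillar collagen gene, and Lum, the gene for the matrix proteoglycan lumican. Of all tested probes, 9.55% and 4.10% rose in these comparisons. The other markers had no call, and the median log2 change of the 8 was 0.13 in C57.YA and 0.05 in C57BL/6J. The summed signal of the 8 was 37861 to 39825 in CX C57.YA hearts and 33453 to 34515 in sham C57.YA hearts. In C57BL/6J it overlapped, with 32455 to 37866 in CX hearts and 32654 to 37692 in sham hearts. The correlation of Igfbp7 with the mean log2 signal of the 8 markers was 0.82 over the 16 arrays and 0.83 for deviations from the group means, among arrays that share their normalization. Fibroblast markers were not alone in this. The same correlations of Igfbp7 were 0.45 and -0.83 with the atrial mean, and -0.24 and 0.66 with the mean of 7 endothelial genes. With the mean fibroblast signal as a covariate, Igfbp7 in C57.YA rose by 0.25 (limma adjusted p = 0.0273).

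**Figure D3:**
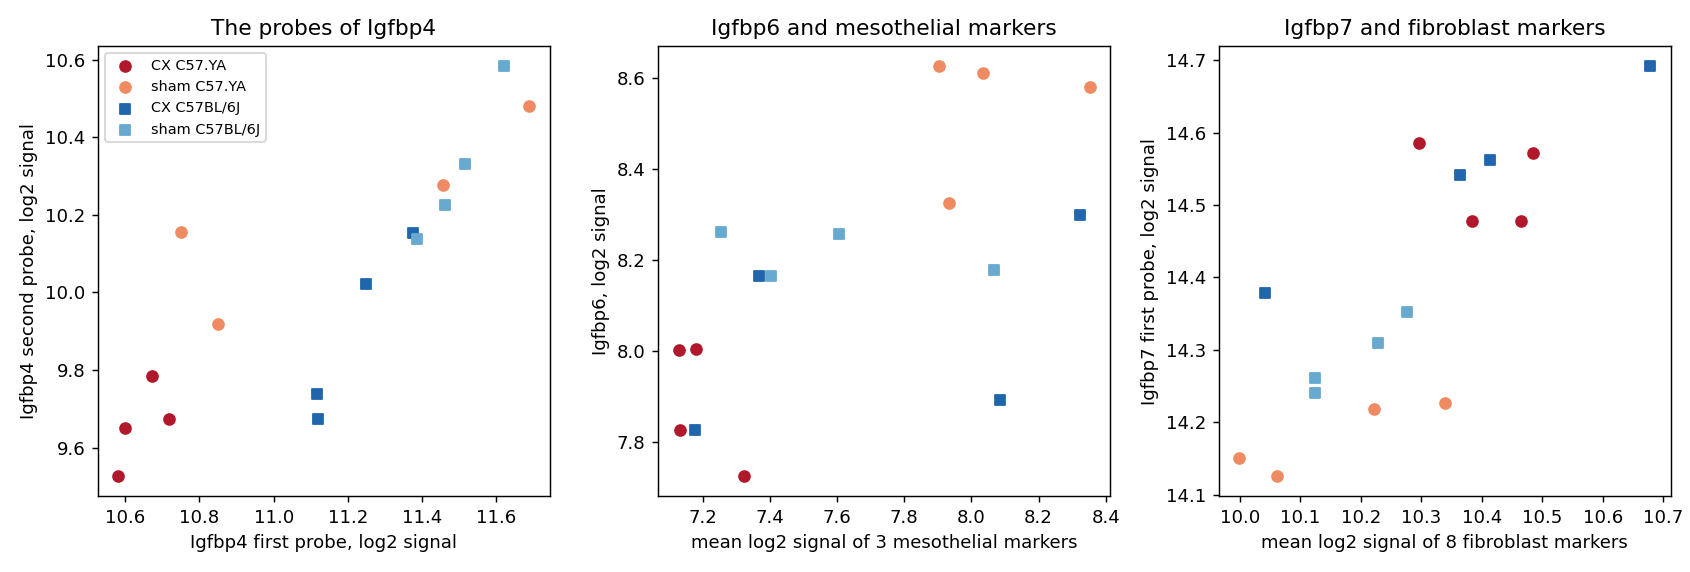
Log2 signals in each of the 16 mice, with C57.YA hearts as circles, C57BL/6J hearts as squares and CX hearts in the darker colours. The left panel sets the second probe of Igfbp4 against the first, the middle panel Igfbp6 against the mean of 3 mesothelial markers, and the right panel Igfbp7 against the mean of 8 fibroblast markers. Of the sham C57.YA hearts, 2 lie at 10.75 and 10.85 on the first Igfbp4 probe, near the CX C57.YA hearts at 10.58 to 10.72.

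Igfbp5, which encodes the most conserved of the binding proteins and is made by smooth muscle cells and fibroblasts, gave 12.06, 12.11, 12.08 and 11.97 in CX C57.YA hearts, against 11.72, 11.99, 11.62 and 11.90 in sham C57.YA hearts. The groups overlapped at 1 CX heart, and the rise of 0.25 ± 0.10 passed by a small margin (limma adjusted p = 0.092). In C57BL/6J it gave 12.40, 11.91, 12.28 and 12.13 in CX hearts, against 12.09, 11.92, 11.89 and 11.92 in sham hearts. That difference of 0.23 ± 0.10 was close in size and did not pass (adjusted p = 0.191), while the average of both strains did (0.24 ± 0.07, limma adjusted p = 0.0208). The call in C57.YA was fragile, since it was lost under 17 of 31 alternative settings. These include leaving out any CX C57.YA replicate, sham C57.YA replicate 1 or 3, or sham C57BL/6J replicate 2 or 4, with adjusted p of 0.103 to 0.223. Without sham C57.YA replicates 1 and 2 it was 0.30 (adjusted p = 0.131), and without replicates 3 and 4 it was 0.21 (adjusted p = 0.23). With the mean fibroblast signal as a covariate it was 0.18 (adjusted p = 0.327), and with the mean mesothelial signal it was 0.55 (adjusted p = 0.00498). Igfbp3, the main carrier of IGF1 in blood, had 7.81 to 7.93 in CX C57.YA hearts and 7.68 to 8.03 in sham C57.YA hearts. It had 7.47 to 8.06 in CX C57BL/6J hearts and 7.73 to 7.76 in sham C57BL/6J hearts. Its log2 change was -0.02 in C57.YA (95% confidence interval -0.24 to 0.20) and 0.13 in C57BL/6J (-0.09 to 0.34), and CX C57BL/6J replicate 4 alone lay below the other hearts. Without that heart the change in C57BL/6J was 0.26 and passed (limma adjusted p = 0.0627).

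Strain comparisons gave fewer calls among these genes. Between CX hearts, 1 of 11 probes passed, where 23.4% of all tested probes did. The first probe of Igfbp4 was lower in CX C57.YA hearts (10.58 to 10.72) than in CX C57BL/6J hearts (11.12 to 11.38), by -0.57 ± 0.15 (limma adjusted p = 0.0134), while the second probe overlapped between the groups (-0.24 ± 0.12, adjusted p = 0.199). The mean atrial log2 signal was 7.09 to 7.65 in those CX C57.YA hearts and 9.23 to 11.16 in those CX C57BL/6J hearts. With it as a covariate, the first probe of Igfbp4 had a difference of -0.89 ± 0.39 (limma adjusted p = 0.424). None of the 12764 tested probes passed in that limma fit, and 1397 had an unadjusted p under 0.05. Between sham hearts, 1 of 11 passed, where 4.29% of all tested probes did. The second probe of Igf2r was higher in sham C57.YA hearts (10.61, 10.80, 10.71 and 10.76) than in sham C57BL/6J hearts (10.47, 10.46, 10.33 and 10.66), by 0.24 ± 0.07 (limma adjusted p = 0.0849), with a single overlapping pair. The first probe of Igf2r had no overlap and a difference of 0.18 ± 0.06 that did not pass (adjusted p = 0.154), and the call on the second was lost under 17 of 31 alternative settings. Igfbp6 was 0.32 ± 0.10 higher in sham C57.YA than in sham C57BL/6J hearts and missed the threshold (limma adjusted p = 0.103).

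The interaction asked whether castration changed a probe differently in C57.YA and in C57BL/6J. None of the 11 probes passed in limma, where 2.88% of all tested probes did, and 1 had an unadjusted p under 0.05. That probe was Igfbp6, whose change was lower in C57.YA by -0.48 ± 0.14 (adjusted p = 0.104). It passed under 6 of 30 alternative settings, and over all 30 the value was -0.88 to -0.37 with adjusted p of 0.0611 to 0.515. For Igfbp4 the differences in change were -0.26 and -0.13 (first and second probe, adjusted p = 0.585 and 0.776), and for Igfbp7 it was 0.10 (adjusted p = 0.683). A difference between strains in the effect of castration was therefore not shown for any of these genes, and the intervals do not exclude one, as the interval for the first probe of Igfbp4 ran from -0.70 to 0.17.

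The genes most like each called probe over the 16 arrays were taken as the 3 tested probes of other genes with the highest Pearson correlation, and carry no test. These correlations include the differences between groups, and for deviations from the group means they were 0.37 to 0.90. For Igfbp7 they were Scarf2 (r = 0.93), Lum (0.92, or 0.37 for deviations from the group means) and Sertad4 (0.92). For Igfbp6 they were Gfpt2 (0.89), Zfp710 (0.87) and Cldn15 (0.86), the last a gene for a tight junction protein. Igfbp4 was followed by Pfkl (0.96), a phosphofructokinase gene of glycolysis, Pnkd (0.95) and Patl1 (0.94) on its first probe, and by H3c14 (0.95), Qrsl1 (0.94) and Tmem25 (0.93) on its second. The 2 probes of Igfbp4 therefore shared no gene in these lists. For the first probe of Igf2r they were Plpp3 (0.90), Xirp1 (0.88) and Eif1ad (0.87), and for Igfbp5 Krt82 (0.83), Rab3il1 (0.82) and Ralgps2 (0.82).

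The rest of the pathway was read from 4 lists, each gene through its brightest tested probe. Among other ligands, binding proteins and proteases of the system, 5 of 14 genes were tested. The probes of Igfbp1 and Igfbp2 were detected on no array. Castration raised Htra1, a secreted serine protease that cleaves IGF-binding proteins, in C57.YA by 0.21 ± 0.07 on the log2 scale, and its second probe by 0.26 ± 0.08 (limma adjusted p = 0.0435 and 0.0422). It lowered Adamts1, a secreted metalloprotease, by -0.28 ± 0.09 in C57.YA (adjusted p = 0.0369). In C57BL/6J none of the 5 passed, and Htra1 differed by 0.17 (adjusted p = 0.155). The median log2 change of the 5 was -0.02 in C57.YA and -0.05 in C57BL/6J.

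Of 23 tested genes of insulin and IGF receptor signalling, 2 rose and 1 fell with castration in C57.YA, and 1 rose and 1 fell in C57BL/6J. Of all tested probes, 9.55% rose and 10.1% fell in C57.YA, and 4.10% rose and 4.71% fell in C57BL/6J. Eif4ebp1, which encodes the repressor of translation that mTOR phosphorylates, rose by 0.49 ± 0.07 in C57.YA and by 0.25 ± 0.07 in C57BL/6J (log2, limma adjusted p = 0.000189 and 0.0534). Mtor, the kinase gene itself, fell by 0.20 ± 0.07 in C57.YA and by 0.26 ± 0.07 in C57BL/6J (adjusted p = 0.0636 and 0.0337), with no overlap of CX and sham hearts in either strain. Irs2, an adaptor of the insulin and IGF1 receptors, rose by 0.51 ± 0.15 in C57.YA (adjusted p = 0.0269) and was 0.32 ± 0.15 higher in CX C57BL/6J hearts without passing (adjusted p = 0.238). The median log2 change of the 23 genes was 0.02 in C57.YA and -0.04 in C57BL/6J. Between CX hearts, 5 of the 23 were higher in C57.YA and none was lower, where 11.6% of all tested probes were higher and 11.8% lower. With the atrial signal that separates these groups as a covariate, none of the 5 passed, nor did any other tested probe. Of the 5, Insr was detected on only 2 arrays, and the other tested probe of Grb14 had no call.

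Of 8 tested genes of growth hormone signalling, 1 rose and 1 fell in C57.YA, and 1 fell in C57BL/6J. Of all tested probes, 19.7% passed in C57.YA and 8.81% in C57BL/6J. Socs2, an inhibitor of the growth hormone receptor pathway, rose by 0.36 ± 0.10 in C57.YA (limma adjusted p = 0.0281). Ptpn11, the gene of the phosphatase SHP2, fell in both strains, by 0.46 ± 0.07 in C57.YA and by 0.24 ± 0.07 in C57BL/6J (adjusted p = 0.000272 and 0.0642), with CX below sham on all arrays. Its other called probes fell by 0.75 and 0.70 in C57.YA and did not pass in C57BL/6J, where the changes were -0.18 and -0.13 (adjusted p = 0.49 and 0.603). Between CX hearts, its probes differed by -0.22 (brightest), -0.41 and -0.46, C57.YA minus C57BL/6J (limma adjusted p = 0.0434, 0.0422 and 0.014). With the atrial covariate no tested probe passed there. Between sham hearts no probe of this list was called. For the interaction, 1 of the 13 tested probes of the list was called lower, where 2.88% of all tested probes passed. Of 5 tested imprinted growth genes, 1 rose in C57.YA, and 2 rose and 1 fell in C57BL/6J, beside the same shares of all tested probes. Ndn rose in C57.YA and in C57BL/6J, by 0.27 ± 0.09 and 0.30 ± 0.09 (limma adjusted p = 0.0581 and 0.0629). In C57BL/6J, Mest rose by 0.48 ± 0.16 and Cdkn1c, which encodes an inhibitor of the cell cycle, fell by 0.21 ± 0.07 (adjusted p = 0.0953 and 0.0906).

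**Figure D4:**
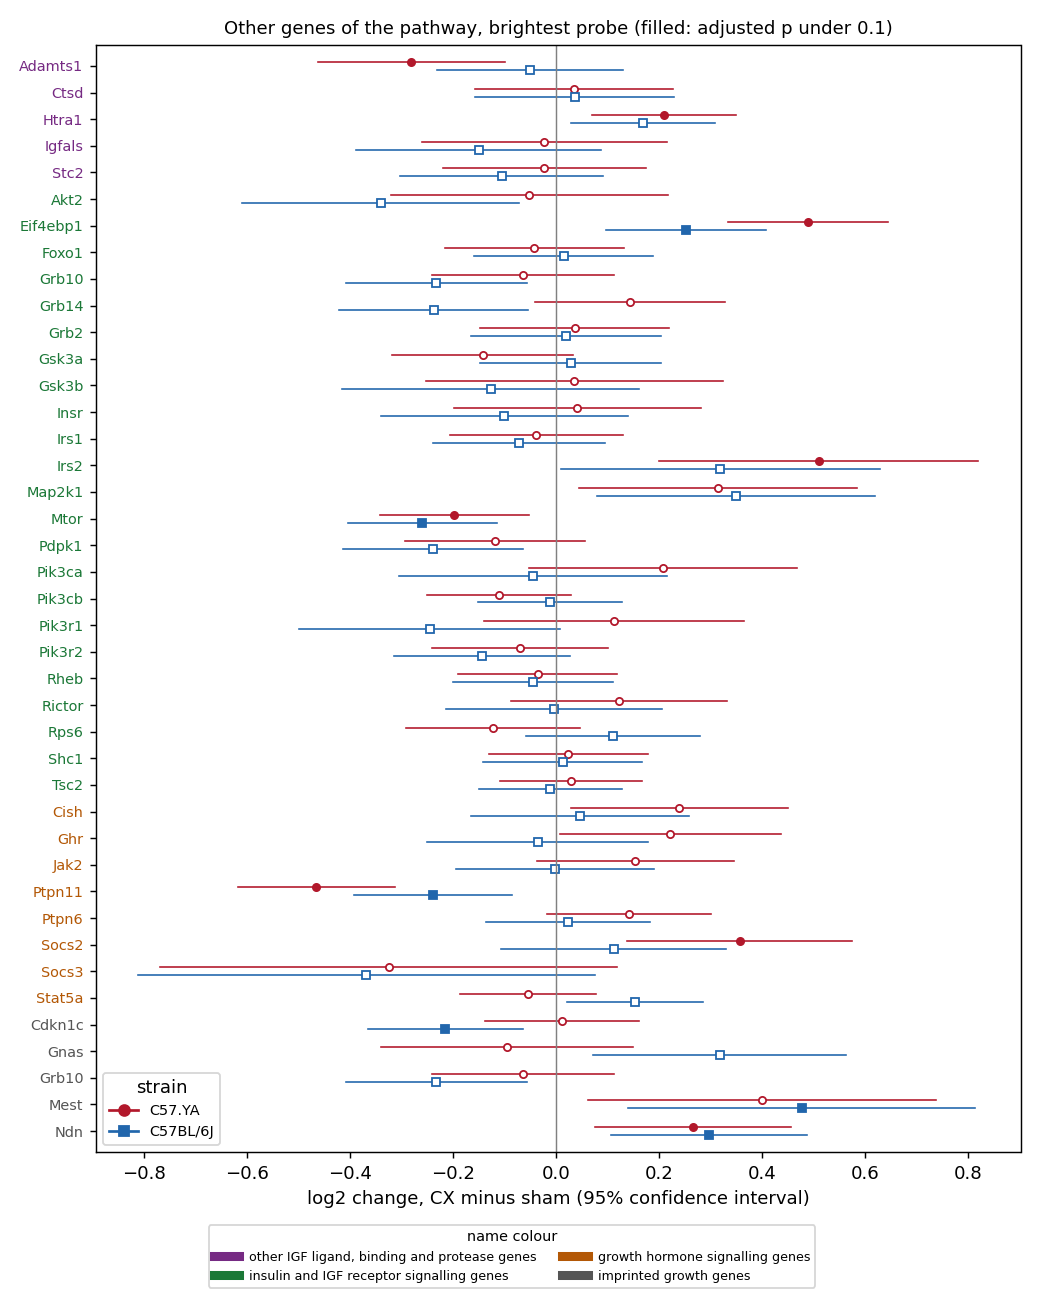
Log2 change by castration (CX minus sham) of the brightest tested probe of each listed gene in C57.YA (circles, upper) and C57BL/6J (squares, lower), with 95% confidence intervals from limma and filled symbols for an adjusted p under 0.1. Name colours give the 4 lists, Grb10 stands in 2 of them, and Eif4ebp1, Mtor, Ptpn11 and Ndn are filled in both strains.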

How the data were processed

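Left ventricular RNA of 16 mice was hybridized to Illumina MouseRef-8 BeadChips. Probe intensities were deposited by the authors as BeadStudio gave them, unnormalized, each with its bead standard error. They also deposited a detection p-value per probe and array and, as a further (other) column, the number of beads, which was 23 to 56 for these genes. Log2 values quantile-normalized by the authors were deposited too. Because the probe names of that table did not match, it was joined by value (largest difference 5.43e-06) and served as an alternative alone. No genome build is given in the sources used here.

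Log2 intensities were quantile-normalized here, with no background subtraction. Probes with a detection p of at most 0.04 on 2 of 4 arrays of a group were tested (12764), of which 12041 had a gene symbol. In limma 3.58.1 (R 4.3.3, statmod 1.5.0) all 16 arrays entered 1 linear model of group means, and p was adjusted over all tested probes by the Benjamini-Hochberg method, at a threshold of 0.1. The fit was tested on simulated data. Where a gene has several probes, the first is the brighter. Every probe of the 9 genes is given. From each pathway list at most 3 called genes per direction and strain are named, and 3 most alike genes per called probe. The members and lists were chosen with earlier results of these data known. Alternatives were other background, scaling, filter, variance, threshold, weights, samples and blocks, and marker signals as covariates. The number of arrays limits the precision.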

Additional observations from a re-analysis of the deposited data

Results flagged for a closer look

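In 2 of 44 combinations of probe and group, 1 heart stood apart from the other 3 by more than the 95% critical value of Dixon's test, where chance gives about 1 in 20, or 2.2 here. The log2 signal of Igf2 was 11.53 in CX C57.YA replicate 1, below 11.71 to 11.75 in the rest of its group, and the group had no call for Igf2. The log2 signal of Igfbp6 was 8.33 in sham C57.YA replicate 1, below 8.58 to 8.63 in the rest of its group. Without that heart, the log2 change of Igfbp6 by castration in C57.YA was -0.71 (limma adjusted p = 0.000148).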

How the results depend on the processing

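Among 11 probes, the count called for castration in C57.YA was 2 without sham C57.YA replicates 1 and 2 and 3 with the mesothelial covariate, where 11.9% and 6.31% of all tested probes were called. In C57BL/6J it was 1 with median scaling, ordinary variance, an adjusted p under 0.05 or the atrial covariate, and 0 to 3 with 1 array left out. It was 3 with the 8 arrays alone, array weights, or without sham C57.YA replicates 1 and 2 or 3 and 4. In these settings 7.65% to 11.7% of all tested probes were called. The count averaged over the strains was 1 with the atrial covariate. Between CX hearts it was 2 with array weights or the fibroblast covariate and 0 with the atrial covariate, under which no tested probe was called there and 0.627% were for castration in C57BL/6J. Between sham hearts it was 0 with neqc, median scaling, no detection filter, an adjusted p under 0.05, array weights, or without sham C57.YA replicates 3 and 4. There it was 2 with the stricter detection filter, ordinary variance, or the atrial or fibroblast covariate, and 0 to 2 with 1 array left out. Without sham C57.YA replicates 1 and 2 it was 3, where 16.1% of all tested probes were called, against 4.29% with all 16 arrays. For the interaction it was 1 with the stricter filter, array weights or the fibroblast covariate, and 0 to 1 with 1 array left out. Without sham C57.YA replicates 3 and 4 it was also 1, where 13.4% of all tested probes were called, against 2.88% with all 16 arrays. The 3 covariates were chosen after seeing the data, and the causes of these shifts were not tested.

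Sign reversals in C57.YA concerned probes without a call. With median scaling the log2 change was 0.0090 for Igf1, 0.0073 for Igf1r and 0.062 for Igfbp3, and with array weights it was 0.0044 for Igfbp3. With the mesothelial covariate it was 0.027 for Igf1, -0.010 for Igf2, 0.11 for Igf1r and 0.084 for Igfbp3, and with the fibroblast covariate 0.14 for Igfbp3. Without sham replicates 1 and 2 it was -0.011 for Igf2 and 0.014 for Igf1r, and without 3 and 4 it was 0.040 for Igfbp3. With 1 array left out, the range was -0.031 to 0.058 for Igf2, -0.075 to 0.021 for Igf1r and -0.089 to 0.026 for Igfbp3. In C57BL/6J, where the second probe of Igfbp4 was the only reversed probe with a call, median scaling gave 0.0027 for Igf2 and 0.024 and 0.060 for the first and second probes of Igf2r, array weights gave 0.0185 for Igf1r, and the fibroblast covariate 0.0066 for the second probe of Igf2r. The atrial covariate gave 0.15 for Igf1, 0.067 for the first probe of Igf2r, -0.53 for Igfbp3, 0.056 and 0.27 for the first and second probes of Igfbp4, and 0.25 for Igfbp6. With 1 array left out, the range there was -0.12 to 0.056 for Igf1r, and -0.082 to 0.0008 and -0.059 to 0.051 for the first and second probes of Igf2r.

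Whether the replicate numbers of the labels pair the hearts was not settled. Deviations of same-numbered hearts correlated between -0.09 and 0.20, and those of different-numbered hearts between -0.28 and 0.18. Of 16 arrays, 7 correlated best with their own number. With the replicate number as a block, 5 probes were called for castration in C57.YA (Igfbp5 was lost, adjusted p = 0.106) and 2 in C57BL/6J. No other call among the 11 probes changed. Over all tested probes, 21.2% then passed in C57.YA and 10.3% in C57BL/6J, against 19.7% and 8.81% without the block. A block for the BeadChip could not be run, because the sources used here do not place the arrays, and the permutation test of the methods was not run. By lowest intensity, Igf1r, Igfbp3, Igf1 and Igfbp6 lay nearest to background.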

Other observations

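Between CX hearts, the 5 genes of insulin and IGF receptor signalling that were higher in C57.YA were Pik3r1, Akt2, Gsk3b, Grb14 and Insr, named after their values were seen. Pik3r1, which encodes the regulatory subunit of phosphatidylinositol 3-kinase, differed by 0.61 ± 0.12 on its brightest probe and by 0.70 and 1.15 on its other called probes (log2, CX C57.YA minus CX C57BL/6J, limma adjusted p = 0.00313, 0.00218 and 0.00365), with no overlap of the groups. The kinase genes Akt2 and Gsk3b both differed by 0.49 (adjusted p = 0.0158 and 0.0219). Insr differed by 0.32 (limma adjusted p = 0.0614), but its only probe was detected on 2 arrays and its CX groups overlapped. The brightest probe of Grb14 differed by 0.31 (limma adjusted p = 0.022). Its other tested probe differed by 0.09 without a call (adjusted p = 0.5), and the groups overlapped. The mean atrial log2 signal was 7.09 to 7.65 in CX C57.YA and 9.23 to 11.16 in CX C57BL/6J hearts, and with it as a covariate, chosen after seeing the data, none of the 5 passed. The brightest probe of Pik3r1 then differed by 0.33 ± 0.32, Akt2 by 0.62 ± 0.35 and Gsk3b by 0.66 ± 0.37 (limma adjusted p = 0.754, 0.537 and 0.536). Between sham hearts, the signal of Eif4ebp1 differed by -0.29 ± 0.07, C57.YA minus C57BL/6J (limma adjusted p = 0.0428), with all 4 sham C57.YA hearts below all sham C57BL/6J hearts.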
